A study of Mus musculus with 12 samples.

Results

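The Hox cluster genes were followed over 3 stages of the developing mouse testis. They were taken as all genes whose symbol in the platform annotation is Hoxa, Hoxb, Hoxc or Hoxd followed by a number alone, using probe sets mapped to 1 gene. This gave 33 genes with 48 probe sets, out of 18194 genes and 45037 probe sets tested. The members were 9 Hoxa, 9 Hoxb, 7 Hoxc and 8 Hoxd genes. Each gene is described by its brightest probe set, the one with the highest mean over the 12 arrays, unless a probe set is named.

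Total RNA from 2 strains at 3 embryonic stages was hybridised to whole-genome Affymetrix mouse arrays, 2 arrays for each of the 6 groups. The groups were 129/Sv embryos (129) at E13.5, E15.5 and E17.5, and embryos of 129.MOLF-Chr 19 (M19), a chromosome substitution strain, at the same stages. Both strains share the 129 background, M19 carries chromosome 19 of the MOLF strain, and the embryos received no treatment that the labels name. The source is given both as male genital ridges and as testis, and the labels name a pool of 40 testis pairs per 2 arrays, without saying which arrays. Where it is the 2 arrays of a group that share a pool, the p-values reflect technical spread and not the spread between embryos.

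Hox genes encode homeodomain transcription factors that give cells their position along the body. They lie in 4 clusters, Hoxa on chromosome 6, Hoxb on 11, Hoxc on 15 and Hoxd on 2, and none lies on the substituted chromosome. Within a cluster the genes are ordered by paralogue number, and genes of the same number in different clusters are close relatives. Low numbers act towards the head and start early, and high numbers act in the lower trunk, the limbs, the genital tubercle and the urogenital ducts. In the trunk the mesonephros, the transient kidney beside the gonad, and the ducts that arise in it are known sites of Hox activity, as is the metanephric kidney.

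The values are the deposited log2 signals, and differences are later minus earlier stage or M19 minus 129 on that scale. A gene is said to have risen or fallen when limma's Benjamini-Hochberg adjusted p, taken over all 45037 probe sets, was under 0.05. Signals of different probe sets depend on the probes, so levels are compared within a probe set and never between genes. In a bulk sample, fewer cells of a type and less RNA per cell cannot be told apart. The Sertoli genes Sox9, Amh, Dhh, Aard and Cst9, together with 4 Leydig and 5 germ cell markers, had mean log2 signals of 10.31 to 13.26 per array and list, so the labelled tissue was represented. Replicate 1 of 129 at E13.5 stood apart from its partner in several members, as given below.

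Promoters are shown for a pair of paralogues that went opposite ways with stage, Hoxa9 and Hoxd9, and for the 2 genes that differed between the strains, Hoxa10 and Hoxd13. Each sequence is the 250 bases before the RefSeq start in the direction of the gene, on mouse build GRCm38.p6, with CG dinucleotides in capitals. The windows are chr6:52227371-52227620 (minus strand) for Hoxa9, chr2:74697513-74697762 (plus strand) for Hoxd9, chr6:52240855-52241104 (minus strand) for the outer start of Hoxa10 and chr2:74667975-74668224 (plus strand) for Hoxd13.
Hoxa9: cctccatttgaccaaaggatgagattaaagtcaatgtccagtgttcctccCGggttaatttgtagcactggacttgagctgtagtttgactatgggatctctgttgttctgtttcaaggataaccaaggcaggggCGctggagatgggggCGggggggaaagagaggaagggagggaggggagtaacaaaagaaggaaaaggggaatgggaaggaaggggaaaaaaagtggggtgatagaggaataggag
Hoxd9: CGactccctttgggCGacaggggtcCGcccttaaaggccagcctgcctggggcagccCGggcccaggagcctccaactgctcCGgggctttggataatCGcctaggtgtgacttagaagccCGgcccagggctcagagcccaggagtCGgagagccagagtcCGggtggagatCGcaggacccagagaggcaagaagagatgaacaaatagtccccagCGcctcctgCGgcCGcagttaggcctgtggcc
Hoxa10: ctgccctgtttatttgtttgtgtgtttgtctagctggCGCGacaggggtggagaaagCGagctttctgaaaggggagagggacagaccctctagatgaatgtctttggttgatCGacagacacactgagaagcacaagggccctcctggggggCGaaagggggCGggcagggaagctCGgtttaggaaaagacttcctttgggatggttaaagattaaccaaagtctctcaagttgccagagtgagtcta
Hoxd13: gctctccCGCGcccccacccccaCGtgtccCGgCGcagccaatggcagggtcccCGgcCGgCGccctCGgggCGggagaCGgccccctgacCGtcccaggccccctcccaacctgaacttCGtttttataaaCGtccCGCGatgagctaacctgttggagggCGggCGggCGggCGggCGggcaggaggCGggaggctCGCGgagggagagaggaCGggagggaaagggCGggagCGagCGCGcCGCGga
The Hoxd13 window held 31 CG dinucleotides, a number reached by 5.19% of 32851 RefSeq promoter windows, and Hoxd9 held 13, reached by 31.5%. Hoxa10 held 7 at this start, reached by 46.3%, and 20 at its inner start, and Hoxa9 held 3, reached by 71%. Over the 21 windows of the 19 members that matched the RefSeq table, the median was 13, against 6 over all windows. The motif TATAAA, searched on both strands, occurred in 2 of the 21 member windows, those of Hoxd13 and of the inner Hoxa10 start, and in 12.4% of all windows. Its 2 matches in Hoxd13 overlap. CCAAT, searched likewise, occurred in 11 of the 21, among them Hoxd13, and in 33.8% of all windows. These matches are descriptions of the sequence and were not tied to the signals.

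From E13.5 to E15.5 the signal of 8 Hox genes fell in each strain, and the genes that fell belonged to the Hoxa, Hoxb and Hoxc clusters. In 129, 8 of 33 genes fell, against 1.84% of all genes, and 2 rose, Hoxd11 and Hoxd13, against 4.46%. In M19, 8 of 33 fell, against 1.66% of all genes, and 0 rose by limma, against 5.74%. The same 7 genes fell in both strains (Hoxa2, Hoxa9, Hoxb2, Hoxb3, Hoxb6, Hoxc4 and Hoxc8), against 1.01% of all genes. By their brightest probe sets Hoxc6 fell in 129 alone and Hoxa10 in M19 alone, and the strain by stage interaction was called for neither. Another probe set of Hoxc6, 1427362_x_at, fell in both strains (-0.66 in 129 and -0.62 in M19). The median difference of the 33 genes was -0.21 in 129 and -0.11 in M19, where that of all genes was -0.03 and 0.05. No Hoxd gene fell at this step.

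**Figure D1:**
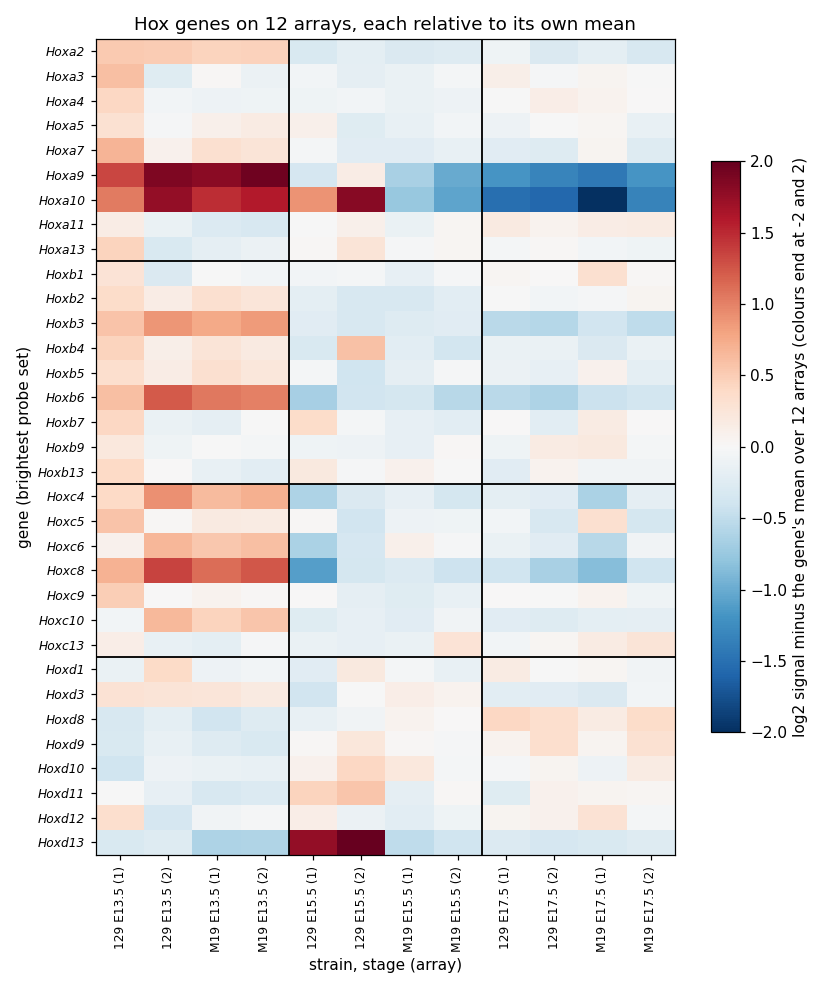
Log2 signal of the brightest probe set of each of 33 Hox genes on the 12 arrays, minus the gene's own mean, with genes in rows by cluster and paralogue number and arrays in columns by stage and strain. Red cells at E13.5 followed by blue cells mark Hoxa9, Hoxb3, Hoxb6, Hoxc4 and Hoxc8, though array 2 of 129 at E15.5 is faintly red for Hoxa9. The Hoxa10 row stays red in 129 at E15.5, and the Hoxd13 row is red in both 129 arrays of E15.5 alone.

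The counts depended on the arrays that entered the fit. Without replicate 1 of 129 at E15.5 the 129 step called 6 genes (1 higher, 5 lower), and fitted on its own 4 arrays it called 2. The M19 step called 5 genes without replicate 2 of M19 at E13.5, 5 without replicate 2 of M19 at E15.5, and 13 on its own 4 arrays.

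Among the paralogues 1 to 3, which pattern the hindbrain and pharyngeal region, 3 of 7 fell in each strain. Hoxa2, which specifies the second pharyngeal arch, stood at 7.40 and 7.38 on the 129 arrays of E13.5 and at 7.31 and 7.33 on those of M19. It stood between 6.55 and 6.79 on all 8 later arrays, so the E13.5 arrays and the later arrays did not overlap. The difference to E15.5 was -0.76 ± 0.11 (SE, 2 arrays per group, limma adjusted p = 0.0026) in 129 and -0.72 ± 0.11 in M19 (adjusted p = 0.0032). Hoxb3, active in the hindbrain and the pharyngeal arches, went from 9.89, 10.19, 10.07 and 10.17 at E13.5 to between 8.99 and 9.09 at E15.5. It fell by 1.00 ± 0.13 in 129 and had a difference of -1.05 ± 0.13 in M19, where it also passed. Hoxb2, of the hindbrain, had differences of -0.52 in 129 and -0.54 in M19, and its call was lost in 9 of 12 fits that leave out 1 array in 129 (highest adjusted p 0.16) and in 4 of 12 in M19 (0.2). The other genes of this range, Hoxa3, Hoxb1, Hoxd1 and Hoxd3, had differences of -0.46 to -0.01 and did not pass the test at this step.

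The paralogues 4 to 8, which pattern the neck and thorax, were represented by 12 genes, of which 4 fell in 129 and 3 in M19. Hoxc8, a gene of the thoracic level, stood at 10.90 and 11.56 in 129 and 11.32 and 11.45 in M19 at E13.5. At E15.5 it stood at 9.11 and 9.85 in 129 and 9.94 and 9.79 in M19, and the 4 arrays of E17.5 ran from 9.36 to 9.81. The E13.5 arrays were all above the later ones, and the spread between the 2 arrays of 129 was wide at both stages. The difference was -1.75 ± 0.26 in 129 (adjusted p = 0.0027) and -1.52 ± 0.26 in M19 (adjusted p = 0.0056). The M19 call was lost without replicate 2 of M19 at E13.5 or replicate 2 of M19 at E15.5, with adjusted p values up to 0.061.

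Hoxb6, also of the trunk, stood at 7.91 and 8.54 in 129 and 8.37 and 8.32 in M19 at E13.5, and at 6.65 to 6.95 on the 8 later arrays. Its differences of -1.45 ± 0.18 and -1.49 ± 0.18 were nearly equal in the strains. Hoxc4, of the neck level, had differences of -1.11 in 129 and -0.93 in M19, and the calls were lost in 1 of 12 and in 4 of 12 fits without an array, with adjusted p up to 0.07 and 0.16. Hoxc6, of the upper thorax, had -0.86 ± 0.20 in 129 (adjusted p = 0.038) and -0.53 ± 0.20 in M19 (0.21), and its 129 call was lost in 9 of the 12 fits (highest adjusted p 0.23). Hoxa4, Hoxa5, Hoxa7, Hoxb4, Hoxb5, Hoxb7 and Hoxc5 did not pass in either strain by their brightest probe sets, with differences of -0.52 to 0.02. The member of this range in the Hoxd cluster, Hoxd8, had differences of 0.15 and 0.35, which did not pass.

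**Figure D2:**
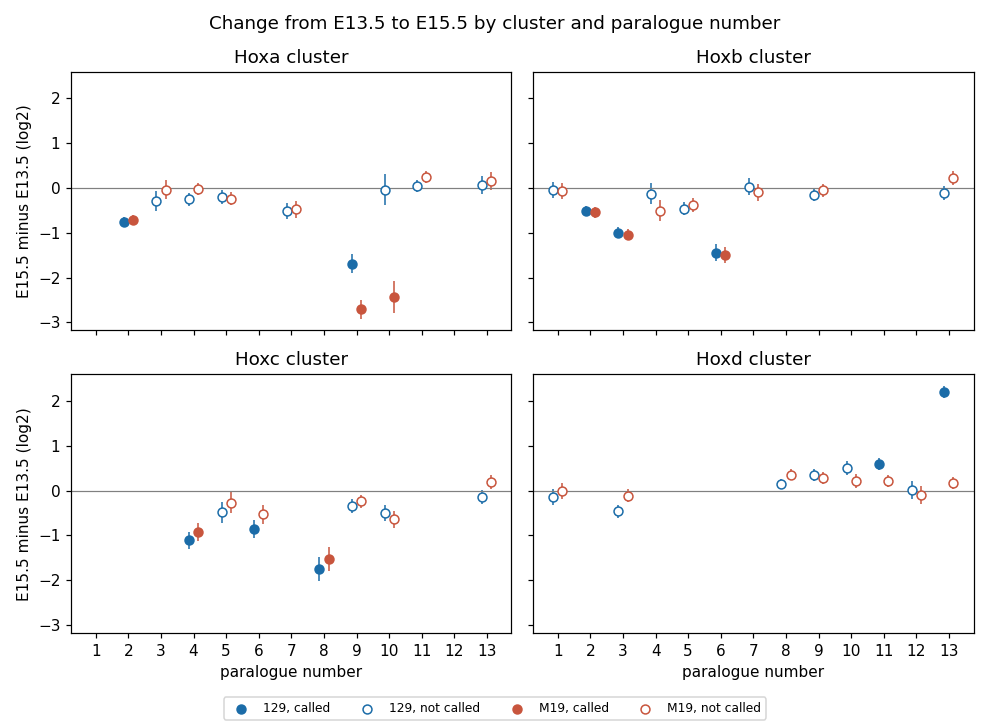
Difference in log2 signal between E15.5 and E13.5 (vertical axis) for each Hox gene by paralogue number (horizontal axis), in 1 panel per cluster, with 129 in blue, M19 in red, the limma standard error as bars and filled points for genes that passed the test. Filled points lie below 0 in the Hoxa, Hoxb and Hoxc panels, from -0.52 to -2.70, and above 0 in the Hoxd panel for Hoxd11 and Hoxd13 of 129.

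Of the 14 genes with paralogue numbers 9 to 13, which pattern the lumbar to caudal trunk and the urogenital tract, Hoxa9 and Hoxa10 had the widest fall over the stages. Hoxa9 stood at 10.03 and 10.56 in 129 and 10.51 and 10.64 in M19 at E13.5. It stood at 8.37 and 8.85 in 129 and 8.05 and 7.68 in M19 at E15.5, and at 7.27 to 7.52 on the 4 arrays of E17.5. The 3 stages did not overlap, and each step was downward. The first step was -1.69 ± 0.21 in 129 (adjusted p = 0.00075) and -2.70 ± 0.21 in M19 (adjusted p = 2.2e-05), and the interaction was not called (adjusted p = 1). From E13.5 to E17.5 over both strains it fell by 3.01 (SE 0.15, adjusted p = 2.1e-07).

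Hoxa10, needed for normal testis descent and uterine identity, passed the test at different steps in the strains, although its interaction was not called (adjusted p = 0.33). It stood at 8.63 and 9.34 in 129 and 9.06 and 9.17 in M19 at E13.5, then at 8.48 and 9.41 in 129 and 6.83 and 6.53 in M19 at E15.5. At E17.5 it stood at 6.08 and 6.02 in 129 and 5.24 and 6.26 in M19. The fall thus came between E13.5 and E15.5 in M19 (-2.43 ± 0.35, adjusted p = 0.002) and between E15.5 and E17.5 in 129 (-2.90 ± 0.35, adjusted p = 0.0021). The 129 difference of the first step was -0.04 ± 0.35. Over both strains and the whole span the gene fell by 3.15 (SE 0.25). All of these values are from its brightest probe set. Its other probe set, 1446408_at, had 0.22 ± 0.10 over the span and was called in none of the 9 comparisons.

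Among the remaining posterior genes of the Hoxa to Hoxc clusters, Hoxa11 and Hoxc10 were called over the span and in no other comparison. Hoxa11, of the kidney and the limbs, had a whole-span difference of 0.28 ± 0.09 (adjusted p = 0.043), a call that was lost in 9 of 12 fits without an array, with adjusted p up to 0.14, and also with array weights and with a replicate block (pairing same-numbered arrays). Hoxc10, of the lumbar level, fell by 0.61 over the span (adjusted p = 0.0068), with first steps of -0.50 ± 0.18 and -0.65 ± 0.18 that did not pass. Hoxa13, Hoxb9, Hoxb13, Hoxc9 and Hoxc13 were called in none of the 9 comparisons, with span differences of -0.15 to 0.16.

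Over the span 2 of 8 Hoxd genes rose, Hoxd8 and Hoxd9, 1 fell, Hoxd3, and 5 did not pass, where 16.3% of all genes rose and 10.9% fell. Hoxd8 stood at 10.67 to 10.86 on the 4 arrays of E13.5, at 10.91 to 11.12 at E15.5 and at 11.22 to 11.46 at E17.5, and the 3 stages did not overlap. It rose by 0.61 ± 0.08 from E13.5 to E17.5 over both strains (adjusted p = 0.00043), and its other probe set rose by 0.72 ± 0.10. Hoxd9 stood at 11.44 to 11.60 on the E13.5 arrays and at 11.71 to 12.08 on the later arrays, again without overlap. Its rise of 0.45 ± 0.10 (adjusted p = 0.0077) stood against a difference of -3.01 ± 0.15 for the brightest probe set of its paralogue Hoxa9. The dimmer probe set of Hoxa9 had -0.32 ± 0.11 and did not pass. Hoxd10 (0.22), Hoxd11 (0.17), Hoxd13 (0.16), Hoxd12 (0.12) and Hoxd1 (0.01) did not pass, and Hoxd3, the most anterior Hoxd member after Hoxd1, fell by 0.44 (SE 0.10). The second probe set of Hoxd13, 1422239_at, rose by 0.29 ± 0.09 (limma adjusted p = 0.033).

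Over the whole span from E13.5 to E17.5, 13 of 33 genes fell, against 10.9% of all genes, and 3 rose, against 16.3%. By cluster, 4 of 9 Hoxa, 4 of 9 Hoxb, 4 of 7 Hoxc and 1 of 8 Hoxd genes fell, and the rises were Hoxa11, Hoxd8 and Hoxd9. Hoxa7 (-0.51 ± 0.13, adjusted p = 0.016) and Hoxb5 (-0.36 ± 0.11, adjusted p = 0.032), both of the thoracic and cervical levels, passed over the span and not in a single step. Their calls were lost in 4 and 6 of 12 fits without an array, with adjusted p up to 0.06 and 0.11, as was that of Hoxb2 (-0.28) in 7. Paralogues 4 to 8 of the Hoxa, Hoxb and Hoxc clusters gave 6 falls among 11 genes and a median of -0.42, against 0.06 for all genes. For 11 genes all 4 arrays of E13.5 lay above all 8 later arrays, against 5.77% of all genes, and for Hoxd8 and Hoxd9 all 4 lay below, against 8.85%. Without the E15.5 arrays of 129 in the fit the span called 17 genes.

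From E15.5 to E17.5 few Hox genes moved. In M19, 0 of 33 passed limma's test, with 3 at an unadjusted p under 0.05, where 3.23% of all genes were called. In 129, 3 fell (Hoxa9 with a difference of -1.16, Hoxa10 with -2.90 and Hoxd13 with -2.22), against 1.24% of all genes, and 0 rose, against 1.18%. The 129 count was 5 under quantile normalization, with an intensity trend, and without either array of 129 at E13.5, each time with 4 lower and 1 higher. The Hoxa9 call did not hold when replicate 2 of 129 at E15.5 or either 129 array of E17.5 was left out (highest adjusted p 0.19).

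At E15.5 the strains differed in 2 Hox genes, Hoxd13 and Hoxa10, both lower in M19. Lower calls made up 0.533% of all genes in this comparison and higher calls 0.148%. Hoxd13, which patterns the digits and the genital tubercle, stood at 8.91 and 9.25 in 129 at E15.5, and at 6.65 and 6.76 in M19. On the other 8 arrays it stood between 6.54 and 6.91, so the 2 arrays of 129 at E15.5 were high and all others formed 1 low range. The difference was -2.37 ± 0.13 (limma adjusted p = 7.8e-06), and the call was kept in all 12 fits that leave out an array. Its second probe set, 1422239_at, stood at 7.63 and 7.67 in 129 at E15.5 and at 6.59 to 7.14 on the other 10 arrays, and differed by -0.85 ± 0.12 (adjusted p = 0.0098).

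Hoxa10 differed by -2.27 ± 0.35 at E15.5 (adjusted p = 0.017), with its 129 arrays at 8.48 and 9.41 and its M19 arrays at 6.83 and 6.53. This call was lost without replicate 2 of 129, replicate 1 of M19 or replicate 2 of M19 at E15.5, with adjusted p up to 0.2. The other probe set of Hoxa10, 1446408_at, differed by 0.10. Hoxd11, which acts with Hoxa11 in the kidney and forearm, showed the same order of arrays, at 8.19 and 8.29 in 129 and 7.56 and 7.76 in M19, with a difference of -0.58 ± 0.13 that did not pass (adjusted p = 0.13). It had risen by 0.59 in 129 from E13.5 (adjusted p = 0.031), a call lost in 5 of 12 fits without an array. Hoxa9 differed by -0.74 ± 0.21 between the strains at E15.5 (adjusted p = 0.29).

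**Figure D3:**
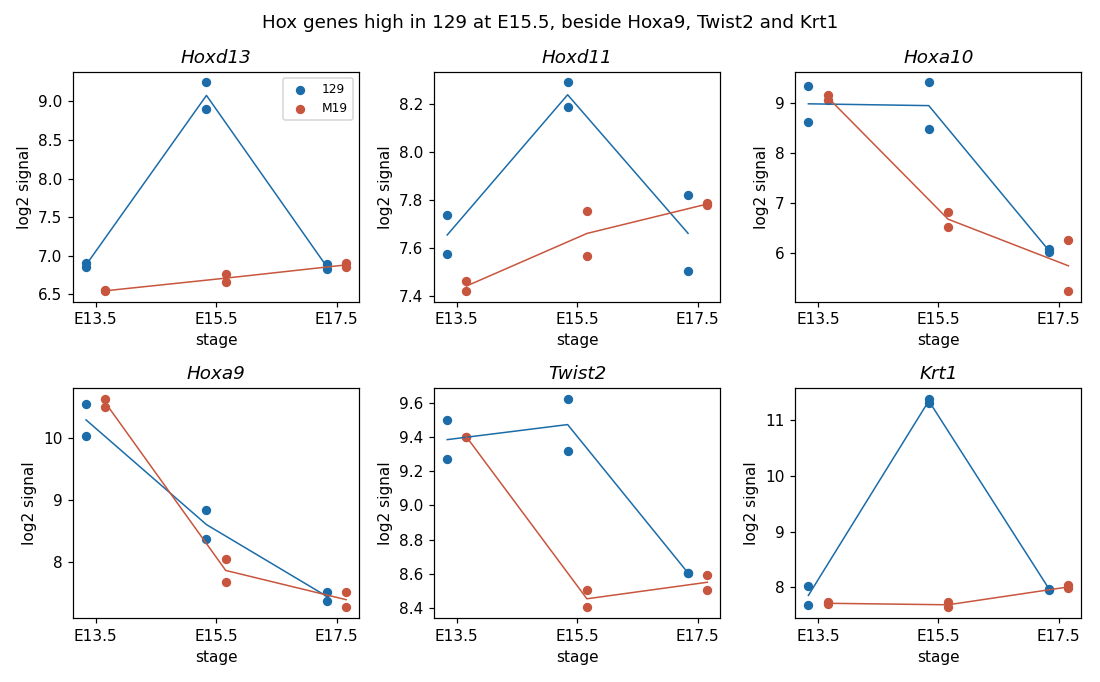
Log2 signal of Hoxd13, Hoxd11, Hoxa10 and Hoxa9, of the dermal mesenchyme factor Twist2 and of the epidermal keratin Krt1 by stage, with 1 point per array, lines through the means of 2 arrays, 129 in blue and M19 in red. Hoxd13 and Krt1 peak in 129 at E15.5 (8.91 and 9.25, and 11.30 and 11.39), and Hoxa10 and Twist2 stay high in 129 and are low in M19 at that stage.

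The mean signals of skin, muscle and cartilage markers were highest in 129 at E15.5, as was the signal of Hoxd13. From E13.5 to E15.5 Hoxa10 had differences of -0.04 in 129 and -2.43 in M19. The list medians were 2.77 and -0.05 for epidermis and 1.04 and -0.22 for muscle. They were 0.53 and 0.01 for cartilage and tendon, and 0.08 and 0.07 for limb and body wall. In M19, Actc1 of 8 muscle, Col2a1 of 8 cartilage and tendon, and Twist2 and Prrx2 of 8 limb and body wall genes fell. At that step 0 of 8 epidermal genes fell in M19, and 1.66% of all genes did. Of 8 epidermal genes 7 were higher in 129 than in M19 at E15.5, as were 6 of 8 skeletal muscle and 4 of 8 cartilage and tendon genes, against the 0.533% of all genes. The mean log2 signal of the epidermal list was 10.49 and 10.50 on the 129 arrays of E15.5 and 7.85 to 8.29 on the other 10, with no marker at 0. For muscle it was 9.07 and 9.17 against 7.58 to 8.04, and for cartilage and tendon 9.12 and 9.19 against 7.82 to 8.27. Of 8 limb and body wall genes Twist2 alone was called, at -1.02 ± 0.13, and its list mean was 8.50 and 8.55 against 8.14 to 8.60 on the other arrays. From E15.5 to E17.5 in 129, where Hoxa9, Hoxa10 and Hoxd13 fell, 7 of 8 epidermal and 4 of 8 muscle genes fell too. So did 3 of 8 cartilage and tendon and 2 of 8 limb and body wall genes, against 1.24% of all genes. The part of these tissues in the Hoxd13 and Hoxa10 differences and in the later falls in 129 was not tested.

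By its brightest probe set, the strain effect on Hoxd13 differed between stages, with an interaction F of 103.78 (limma adjusted p = 0.00044). This was the interaction call among the 33 genes, against 0.203% of all genes, and the strain differences were -0.34 at E13.5, -2.37 at E15.5 and 0.02 at E17.5. Averaged over the 3 stages Hoxd13 was lower in M19 by -0.89 ± 0.07 (adjusted p = 0.00019), against 0.346% of all genes called lower. That call rested on 1 group: without the E15.5 arrays of 129 no Hox gene was called for the strain effect. The second probe set of Hoxd13, 1422239_at, passed neither of these limma tests. Its interaction F was 15.21 (adjusted p = 0.23), and it had -0.31 ± 0.07 over the stages (adjusted p = 0.17). At E13.5 and E17.5, 0 of 33 genes differed between the strains by limma, with 3 and 0 at an unadjusted p under 0.05, where 0.033% and 0.0934% of all genes were called. The differences ran from -0.39 to 0.28 at E13.5 and from -0.30 to 0.22 at E17.5.

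Probe sets of the same gene did not always pass together. Of the 33 genes 11 had 2 or more probe sets, 26 in all, with 4 for Hoxa3. Hoxa5, which acts in the lung and the neck, is the clearest case. Its probe set 1448926_at stood at 9.50 and 9.79 in 129 and 9.87 and 9.78 in M19 at E13.5, and at 6.79 to 7.47 on the 8 later arrays. Its difference was -2.52 ± 0.17 in 129 (adjusted p = 8.6e-06) and -2.40 ± 0.17 in M19 (adjusted p = 1.1e-05), while the brightest probe set, 1443803_x_at, differed by -0.21 and -0.24 and did not pass.

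Hoxc5 showed the same split. Its probe set 1450832_at stood at 7.61 to 7.77 on the 4 arrays of E13.5 and at 6.13 to 6.48 on the later ones, with differences of -1.29 ± 0.11 and -1.31 ± 0.11 that passed. Its 2 brighter probe sets differed by -0.48 to -0.13 and did not pass. In Hoxa3, 1427433_s_at had -1.19 ± 0.32 in 129 (adjusted p = 0.063) and -1.63 ± 0.32 in M19 (adjusted p = 0.012), and the other 3 probe sets had -0.54 to 0.10. In Hoxa9 the dimmer probe set 1421579_at had -0.44 and -0.34, where the brightest had -1.69 and -2.70, and the dimmer probe set of Hoxb3 had -0.34 and -0.36. The dimmer probe set of Hoxa10, 1446408_at, had 0.05 and 0.22, where the brightest had -0.04 and -2.43. Hoxc6 passed in 129 alone by its brightest probe set. Its probe set 1427362_x_at passed in both strains, with -0.66 ± 0.12 and -0.62 ± 0.12, and 1427361_at in neither (-0.46 and -0.15). With a gene counted when at least 1 of its probe sets passed, 10 genes fell at the first step in 129, against 2.65% of all genes counted so, and 12 in M19, against 2.52%. The mean of all probe sets of a gene called 14 genes in M19, 13 lower and 1 higher.

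**Figure D4:**
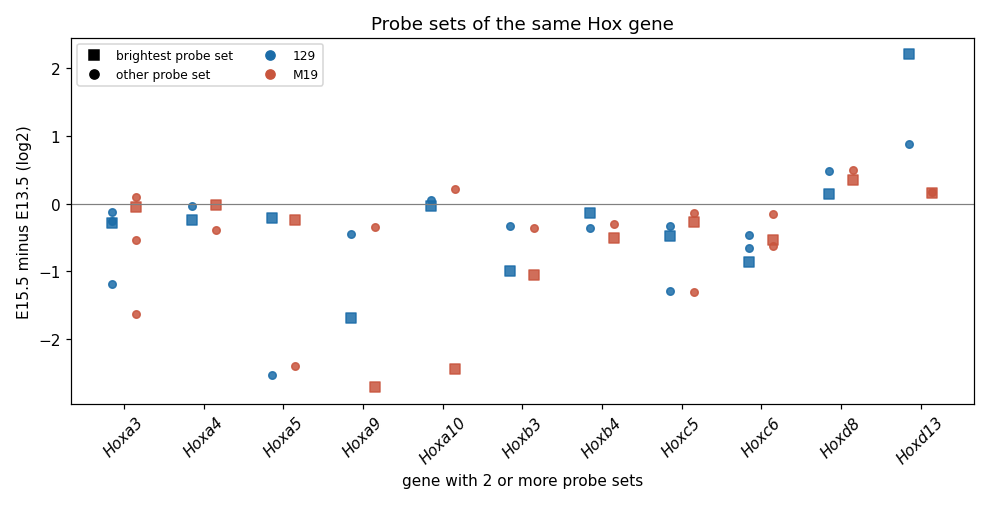
Difference in log2 signal between E15.5 and E13.5 for every probe set of the 11 Hox genes with 2 or more, with squares for the brightest and circles for the others, 129 in blue and M19 in red. The dimmer probe set of Hoxa5 lies at -2.52 and -2.40 and its brightest at -0.21 and -0.24, while for Hoxa9 and Hoxa10 (in M19) the brightest lies lowest.

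The partners and regulators of Hox proteins were read from lists. Among 8 measured TALE cofactors, homeodomain proteins that bind DNA together with Hox proteins, Meis1 and Meis2 fell at the first step in both strains. Meis1 stood at 11.49 to 11.63 on the E13.5 arrays and at 9.89 to 10.53 later, with differences of -1.45 ± 0.15 in 129 and -1.18 ± 0.15 in M19. Meis2 had -1.16 and -0.86, and Pbx3 rose by 0.65 in 129 (adjusted p = 0.015). Meis3, Pknox1, Pknox2, Pbx2 and Pbx4 did not pass at this step, and none of the 8 passed the test between the strains at E15.5. At this step 4.46% of all genes rose and 1.84% fell in 129, and 5.74% rose and 1.66% fell in M19, shares that hold for the lists below too. From E13.5 to E17.5 over both strains 3 of the 8 rose (Pknox2 0.59, Pbx3 0.46, Pbx2 0.38) and Meis1 and Meis2 fell, where 16.3% of all genes rose and 10.9% fell.

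Of 11 upstream factors, 2 fell and 1 rose at the first step in 129, and 1 fell and 1 rose in M19, so that the single rise is close to the share of all genes. Rarb, a retinoic acid receptor whose gene is itself induced by retinoic acid, stood at 8.80 to 9.08 at E13.5 and at 7.29 to 7.80 later, with -1.34 ± 0.15 in 129 and -1.64 ± 0.15 in M19. Aldh1a2, an enzyme that makes retinoic acid, fell by 0.86 in 129 and had -0.50 ± 0.15 in M19 (adjusted p = 0.093), and Aldh1a1 rose by 0.66 in both strains. The Cdx genes, which induce trunk Hox genes in the early embryo, were not called at this step. Cyp26a1, an enzyme that degrades retinoic acid, rose by 1.11 in M19 from E15.5 to E17.5 (adjusted p = 0.0013), and at E17.5 it was the list gene that differed between the strains, higher in M19 by 0.93 ± 0.12 (adjusted p = 0.018). Over the span 3 of the 11 rose (Aldh1a1 0.91, Cyp26a1 0.57, Cdx4 0.45) and Rarb and Aldh1a2 fell, where 16.3% of all genes rose and 10.9% fell. Cdx4 was dim, at 4.18 to 5.35 on the 12 arrays, where the median of all probe set means was 8.17. Cyp26a1 had 129 means of 7.66, 7.65 and 7.73 at the 3 stages, and its rise came mainly from M19 at E17.5 (8.66).

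Of 20 measured chromatin regulators, 1 rose in each strain at the first step, the Polycomb subunit Eed by 0.53 in 129 and by 0.55 in M19, a count close to the share of all genes. The Polycomb methyltransferase Ezh2 (-0.48) and the histone demethylase Kdm6b (-1.26) fell in 129, and the other members did not pass at this step. Over the span 3 of the 20 rose and 5 fell, where 16.3% of all genes rose and 10.9% fell, so that the rises are close to that share. The largest differences were in Ezh2 (-0.54), Cbx8 (0.53), Eed (0.52), Kdm6a (-0.51) and Kdm6b (-0.48). The same span shares hold for the genes next to the clusters, given below. Cbx2, a Polycomb subunit, fell by 0.56 in M19 from E15.5 to E17.5, and Men1, a partner of histone methyltransferases, was lower in M19 over the 3 stages (-0.39 ± 0.07, adjusted p = 0.033). Chromosome positions were read for the Hox genes and not for the listed genes. Whether Men1 and Cyp26a1, called between the strains, lie on the substituted chromosome was therefore not assessed. Of 10 genes next to the clusters, Skap2, beside Hoxa, rose by 0.68 in 129, and Hibadh rose by 0.55 in M19, and over the span Skap2 rose by 0.77 and Smug1, beside Hoxc, had -0.69 and passed. Evx2, which lies beside Hoxd13, stood at 8.63 and 8.64 in 129 and 8.83 and 8.86 in M19 at E15.5, so it did not share the high 129 signal of Hoxd13.

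Some markers of the mesonephros, ducts and kidney fell at the first step, as did several Hox genes. Of 7 measured markers 3 fell in each strain, against the 1.84% and 1.66% of all genes. Foxd1, of the kidney stroma, had -2.18 ± 0.20 in 129 and -2.38 ± 0.20 in M19, and Cdh16, a cadherin of kidney tubules, had -2.08 ± 0.13 and -1.87 ± 0.13. Emx2, needed to form the urogenital system and also active in the early gonad, fell by 1.00 and 1.01. It fell again from E15.5 to E17.5, with -1.03 in 129 and -0.86 in M19, a step at which few Hox genes moved. The mean log2 signal of the list ran from 9.18 to 9.43 on the E13.5 arrays and from 8.22 to 8.46 on the 8 later ones, with no marker at 0, while Pax8, Lhx1, Wnt9b and Six2 did not pass. Other markers moved at this step too. All 4 measured fetal Leydig genes rose in both strains, with median differences of 1.54 in 129 and 2.03 in M19, and 1 of 5 neural and chromaffin genes, Stmn2, fell in both (-0.64 and -1.25). In 129, 7 of 8 epidermal, 5 of 8 muscle and 4 of 8 cartilage and tendon genes rose, against 0 of each list in M19. Of 5 germ cell genes, Ddx4 and Dnd1 rose in both strains, Pou5f1 rose in M19 and Dppa3 fell in 129. Among all genes 4.46% rose in 129 and 5.74% in M19. In M19, where Hoxa10 fell, 2 of 8 limb and body wall genes fell, Twist2 (-0.94 ± 0.13) and Prrx2 (-0.68 ± 0.12), and in 129 none of the 8 passed. The part of these tissues in the fall of the Hox genes was not tested.

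Replicate 1 of 129 at E13.5 lay below its partner for several of the genes that fell, with 10.90 against 11.56 for Hoxc8, 7.91 against 8.54 for Hoxb6 and 8.63 against 9.34 for Hoxa10. This array lay above its partner for other members, with 9.82 against 8.98 for Hoxa3, 9.42 against 8.82 for Hoxa7 and 8.91 against 8.70 for Hoxb2. Without it the first step in 129 called 10 genes, as many as with it. Probe sets that the annotation gives to several Hox genes were left out of the counts. The one for Hoxb7 and Hoxb8, 1452493_s_at, fell by 0.99 at the first step in M19 (adjusted p = 0.015) and had -0.51 in 129 (adjusted p = 0.25), and the 2 for Hoxd3 and Hoxd4 had -0.37 to 0.09 and did not pass.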

How the data were processed

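The deposited values are 1 number per probe set and array, taken as log2 signal from their range, since the authors' summary method, normalization and log base are not given in the sources used here. Array medians ran from 8.1 to 8.27. The 64 control probe sets were left out and 45037 were tested. Arrays have no read depth, and their number, 2 per group, limits the precision.

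A model of 6 group means was fitted to all 12 arrays with limma 3.58.1 (R 4.3.3), with eBayes, two-sided tests and Benjamini-Hochberg adjustment over 45037 probe sets, and had 6 residual and 4.82 prior degrees of freedom. The 9 comparisons and the strain by stage F test were tested so. Members were named with full values where called or where probe sets disagree, and list genes where called, at most 5 per list and comparison, largest first. The members and lists were chosen with earlier results of these data known. The fit was tested on simulated data. Gene names and promoters come from RefSeq (GRCm38.p6), which matched 34741 of 34945 probe sets with 1 gene. Alternatives were quantile normalization, median centring, a filter on dim probe sets, other variance models, array weights, a replicate block, other probe set rules and leaving out arrays. The rule that counts a gene when at least 1 of its probe sets passes was chosen after seeing the data. Tables and figures were made in Python 3.11.15 (pandas 2.3.3, matplotlib 3.10.9).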

Additional observations from a re-analysis of the deposited data

Results flagged for a closer look

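The strain effect on Hoxd13 (probe set 1440626_at) differed between the stages by the test of the interaction, with an F of 103.78. Its second probe set, 1422239_at, had an F of 15.21 and was not called. The values that follow are those of 1440626_at. The 129 arrays of E15.5 stood at 8.91 and 9.25, and all 10 other arrays at 6.91 or lower. Groups of 2 arrays are too small for a test of single outlying arrays.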

How the results depend on the processing

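Of the 41 member calls, 28 were kept in all 12 fits that leave out 1 array, 23 of them also in each other setting run that still measured the gene, and none was reversed in any setting run. The counts moved as follows. With probe sets under the median of all mean signals left out, 19 of the 33 genes remained measurable, and the counts were 0 for the strains at E15.5, 0 over the 3 stages, 0 for the interaction, 6 for the first step in 129 and 5 in M19. Fitted on the arrays compared, the first step gave 2 genes in 129 and 13 in M19. In M19 it gave 14 with array weights and 14 with the mean of all probe sets. The late step in 129 gave 5 under quantile normalization and 5 with an intensity trend. Without the E15.5 arrays of 129 the strain effect over the stages gave 0. Leaving out 1 array gave 1 to 2 genes for the strains at E15.5, 6 to 12 and 5 to 10 for the first step in 129 and M19, 2 to 5 for the late step in 129, and 12 to 17 for the span. The total counts of 0 for the strains at E13.5 and E17.5 and for the late step in M19 stayed at 0 in each setting run. The counts of 0 rising genes did not: 1 rose at the first step in M19 with array weights and with the mean of probe sets, and 1 at the late step in 129 under quantile normalization, with an intensity trend and without either 129 array of E13.5. With a replicate block the first step gave 10 in 129 and 8 in M19 and the span 15, within 1.5 times of the reported counts. It ended the Hoxa11 call over the span and no other. Same-numbered arrays of different groups deviated from their group means with correlations of -0.373 to 0.539 and a median of 0.0106. The numbers were therefore not taken as pairs in the reported fit, and a pairing among some of the groups was not tested. The fit without the E15.5 arrays of 129 could not be run for comparisons that need them. A probe set with a low signal can hide a change, and no detection calls were used.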
